A study of Mus musculus with 2 samples.

Results

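The cells described here are cardiac macrophages that carried transcripts of *Cd207* or *Clec4f*, 80 cells among the 2017 C1q-gated cells of 2 single-cell RNA sequencing (scRNA-seq) libraries. A barcode was a member when it had at least 1000 genes, at most 10% mitochondrial unique molecular identifiers (UMIs, which mark individual RNA molecules), at least 10 UMIs of the complement genes *C1qa*, *C1qb* and *C1qc* per 10000 UMIs (the C1q gate), at least 3 UMIs of *Cd207* and *Clec4f* together, and fewer than 5 UMIs each of *Prg4* and *Ccr2*. The limits on genes and mitochondrial UMIs kept 6149 of 10998 barcodes, 3380 WT and 2769 *Lyve1* KO. The WT library gave 66 members of 1409 C1q-gated cells, and the KO library 14 of 608. The members were selected on the measured UMIs of *Cd207*, *Clec4f*, *C1qa*, *C1qb*, *C1qc*, *Prg4* and *Ccr2*. The levels of these genes therefore describe the choice and are not a result. *Vsig4*, *Id3* and *Vcam1* were not part of the gate. They were chosen as markers of these cells with earlier results of these data known, so their levels are a description and not independent support.

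The study asked what LYVE-1, a hyaluronan receptor on lymphatic endothelium and on a part of the tissue macrophages, does in the neonatal mouse heart after myocardial infarction (MI). Both libraries came from mice aged 9 days that underwent MI on postnatal day 2, with tissue collection 7 days after MI (P2MI7dpi), and live CD45+ leukocytes, negative for the dead-cell stain 7-AAD, were sorted by flow cytometry before 10x Genomics 5′ sequencing. The WT library pooled 5 wild-type hearts and the KO library 5 hearts with a global deletion of *Lyve1* (*Lyve1*-/-), a deletion carried by every cell type and not by macrophages alone. The strain was not given in the sources used here for this experiment, both genotypes had MI, and an uninjured heart was not analysed here. With 1 library per genotype there was no replicate and no test was possible between genotypes or between groups of cells. The 95% intervals below are exact Poisson intervals of summed UMIs, Clopper-Pearson intervals of shares or Newcombe intervals of a difference of shares. They reflect counting error alone, without the spread between hearts.

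*Cd207* encodes langerin, an endocytic C-type lectin known from the Langerhans cells of the skin, and *Clec4f* encodes a C-type lectin of Kupffer cells, the resident macrophages of the mouse liver. *Vsig4* encodes a complement receptor of resident macrophages, which in the liver captures blood-borne particles coated with C3 fragments. *Id3* and *Id1* encode inhibitor-of-DNA-binding proteins, which hold basic helix-loop-helix factors inactive and are well-known targets of bone morphogenetic protein (BMP) signaling through SMAD proteins, and *Vcam1* encodes an adhesion molecule for integrins. In Kupffer cells, signals from the neighboring endothelium that include Notch and BMP or TGF-beta ligands are known to set up this set of genes.

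On GRCm38, *Clec4f* (chr6:83644542-83656187, minus strand) and *Cd207* (chr6:83671215-83677857, minus strand) are neighbors on chromosome 6, 15028 bases apart. *Vsig4* lies at chrX:96247203-96293438 on the minus strand, *Id3* at chr4:136143497-136145755 on the plus strand and *Vcam1* at chr3:116109949-116129688 on the minus strand. These gene positions are from GENCODE. The 250 bases upstream of the start in RefSeq (GRCm38.p6) are shown for *Cd207*, which selected nearly all members, and for *Vsig4*, the marker outside the gate with the highest ratio below. For both genes RefSeq and GENCODE place the start at the same base. For *Clec4f* and *Id3* the RefSeq start lies inside the GENCODE gene, so their windows are not upstream of both starts and are not shown. The sequences run 5′ to 3′ on the gene's strand, and capitals mark GAGGAA, a core of sites for ETS factors such as PU.1, on either strand, so that TTCCTC is GAGGAA read from the other strand. The windows are chr6:83677858-83678107 for *Cd207* and chrX:96293439-96293688 for *Vsig4*.
Cd207: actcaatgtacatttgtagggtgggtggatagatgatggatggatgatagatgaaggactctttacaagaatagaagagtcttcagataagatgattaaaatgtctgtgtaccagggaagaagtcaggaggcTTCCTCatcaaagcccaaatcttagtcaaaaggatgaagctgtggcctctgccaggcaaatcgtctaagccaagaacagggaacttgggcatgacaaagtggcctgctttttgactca
Vsig4: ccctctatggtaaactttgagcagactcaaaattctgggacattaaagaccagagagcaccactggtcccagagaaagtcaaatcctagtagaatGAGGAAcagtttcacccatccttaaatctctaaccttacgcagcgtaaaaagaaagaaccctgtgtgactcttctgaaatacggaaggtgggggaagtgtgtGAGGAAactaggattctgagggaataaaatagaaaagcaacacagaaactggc
GAGGAA occurred 1 time in the *Cd207* window and 2 times in that of *Vsig4*, and 23.3% of all 32851 promoter windows of this length held it. TGGGAA, the core of RBPJ sites (21.6% of all windows), and the GC-rich SMAD motif GGCGCC (9.59%) were searched on both strands too and were in neither window. These are descriptions of letters in a window and say nothing of binding.

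The libraries held 67968938 UMIs (WT) and 61555917 UMIs (KO). The members held 1404249 UMIs in WT and 322948 in KO, with a median per cell of 18071.5 (3488 to 54553) and 22053 (3383 to 61982). The comparison cells were the other CCR2-low macrophages, which passed the C1q gate and the limits on *Prg4* and *Ccr2* but had 0 UMIs of *Cd207* and *Clec4f* (1145 WT and 447 KO cells, median 22305 and 25488 UMIs). Levels are given as CPM, computed from the UMIs of a gene summed over a group of cells and the total of that group. A gene with 0 UMIs allows up to 2.14 CPM in WT members and up to 9.29 CPM in KO members (3 counts), so low levels were less detectable in the KO members. The libraries shared 9 barcodes, none of them a member.

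Of the 14 KO members, 1 barcode carried B cell transcripts and stood apart from the others. It held 61982 UMIs, 19.2% of all KO member UMIs, with 94 UMIs of *Cd79a*, 59 of *Ms4a1* and 107 of *Ighm* beside 34 of *C1qa*, 13 of *Vsig4* and 9 of *Cd207* and *Clec4f* together. It had 0 UMIs of *Id3*, and 1380 of the 1513 *Lars2* UMIs of the KO members. Its doublet score of 0.0862 was not among the highest scores, and whether it held material of more than 1 cell was not tested. Values for the KO members include it. The counts of each gene list without it, and gene values that it moved by over 1.5 times, are given as those of the "13 KO members" (260966 UMIs).

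The values that chose the members were as follows. The WT members had 3 to 136 UMIs of *Cd207* and *Clec4f* together (median 25.5) and the KO members 4 to 127 (median 33.5). At least 10 such UMIs were present in 52 WT and 10 KO members, so most members lay well past the limit of 3. *Cd207* was at 1498 CPM in WT members (1434–1563), in 65 of 66 cells, and at 1492 CPM in KO members (1362–1632), in 14 of 14 cells. Per cell, *Cd207* ranged from 0 to 63.6 UMIs per 10000 in WT (median 13.2) and from 1.45 to 53.6 in KO (median 15.2). *Clec4f* was at 155 CPM (135–177) in 26 of 66 WT members and at 58.8 CPM (35.4–91.9) in 3 of 14 KO members. The gate thus selected *Cd207*-positive cells almost entirely, with *Clec4f* on a part of them. Just inside the limit, 10 WT cells had 3 to 5 such UMIs and just outside it 15 WT cells had 1 or 2. The cells inside had 527 CPM of *Vsig4*, 656 of *Id3*, 454 of *Vcam1* and 348 of *Lyve1*, and those outside 631, 1408, 126 and 1597 CPM.

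Of the genes that the gate did not use, *Vsig4*, *Id3* and *Vcam1* were higher in the members than in the other CCR2-low macrophages of both libraries. *Vsig4* was at 729 CPM (685–775) in WT members, in 39 of 66 cells, against 27.5 CPM in the comparison cells, a log2 ratio of 4.30 after adding 10 CPM to both sides, as in all ratios below. In KO members *Vsig4* was at 687 CPM (600–784), in 11 of 14 cells, against 35.2 CPM, a log2 ratio of 3.95 (801 CPM and 4.16 in the 13 KO members). Per cell, *Vsig4* ran from 0 to 39.2 UMIs per 10000 with a median of 2.13 in WT members, so the high level came from a part of the cells. *Id3*, in contrast, had a UMI in all 66 WT members, at 1.06 to 82.4 UMIs per 10000 (median 17.5). Its summed level in WT was 2047 CPM (1972–2123) in members and 159 CPM in the comparison cells, a log2 ratio of 3.602. In KO it was 1105 CPM (994–1226) against 183 CPM, a log2 ratio of 2.53 (1368 CPM and 2.84 in the 13 KO members), and 12 of 14 members had a UMI. *Vcam1* stood at 259 CPM (233–287) against 34.3 CPM in WT, a log2 ratio of 2.6, with 35 of 66 members positive. In KO its values were 260 CPM (207–322) and 33.4 CPM, a log2 ratio of 2.64, with 12 of 14 members positive.

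**Figure D1:**
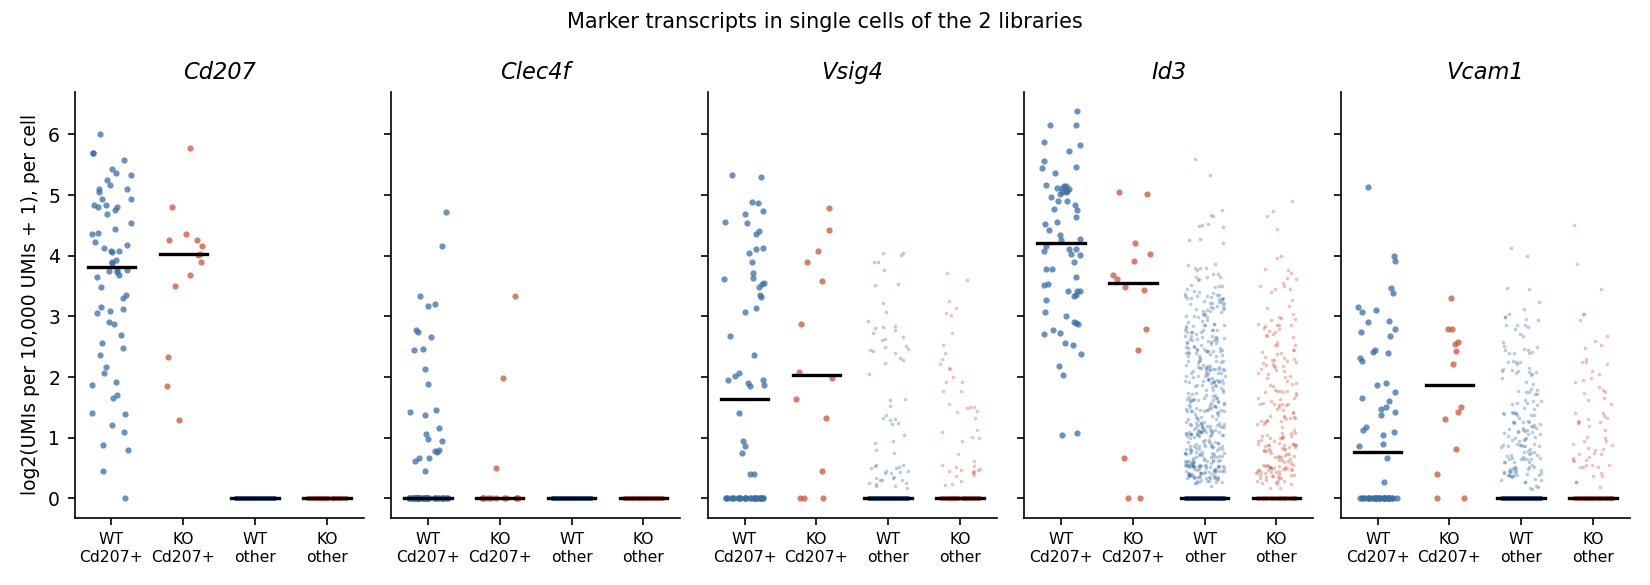
Each point is 1 cell, with log2 of UMIs per 10000 plus 1 on the vertical axis, for members (Cd207+) and other CCR2-low macrophages of the WT and KO libraries, and bars mark medians. *Id3* was above 0 in all 66 WT members, whereas *Vsig4*, *Vcam1* and *Clec4f* were at 0 in a part of the members, and *Cd207* and *Clec4f* were at 0 in the other cells by the choice of these groups.

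Free RNA can give a UMI to a cell that does not express the gene, so shares of positive cells were set beside lymphocytes, at 6300 UMIs per cell for all. At this depth *Vsig4* had a UMI in 54.0% of 63 WT members and 69.2% of 13 KO members but in 0.156% of 643 WT and 0 of 980 KO lymphocyte-gated cells. *Vcam1* was in 38.1% and 69.2% of members and in 0.156% and 0 of lymphocytes, and *Clec4f* in 25.4% and 23.1% of members and in 0.156% and 0 of lymphocytes. *Id3* was in 100% and 84.6% of members, and here lymphocytes were not a negative control, with 26.1% and 29.4% positive. The median depth of the lymphocytes before thinning was 14134 UMIs in WT and 14946 in KO. In C1q-gated cells with at least 5 UMIs of *Ccr2*, *Vsig4* was at 9.90 CPM in WT and 0 in KO, *Vcam1* at 0.861 and 4.55 CPM and *Id3* at 393 and 230.1 CPM. In those with at least 5 UMIs of *Prg4*, *Vsig4* was at 123 and 17.9 CPM, *Vcam1* at 16.3 and 0 CPM and *Id3* at 557 and 337 CPM.

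The members were not uniform in these markers. Among all 80, 28 had both *Cd207* and *Clec4f*, 51 had *Cd207* without *Clec4f* and 1 had *Clec4f* without *Cd207*. *Vsig4* had a UMI in 50 members, and 19 had neither *Vsig4* nor *Clec4f*. All 5 markers were found in 14 members, 4 in 26, 3 in 29 and 2 in 11. When the WT members were divided by the presence of a *Vsig4* UMI (39 with, 27 without, median 18869 and 17162 UMIs), *Cd207* was at 1504 and 1487 CPM, *Id3* at 2169 and 1861 CPM and *Id1* at 453 and 571 CPM. Genes of the resident list went different ways between these sets of cells. The folate receptor gene *Folr2* was at 357 CPM with *Vsig4* and 113 without, *Cbr2* at 262 and 23.4, the phosphatidylserine receptor gene *Timd4* at 149 and 55.7 and the hemoglobin scavenger receptor gene *Cd163* at 193 and 86.2. *Stab1* was at 461 and 462 CPM, *Selenop* at 1569 and 1442 and *Pf4* at 2561 and 2818, and the lectin gene *Mgl2* was at 9.44 CPM with *Vsig4* and 88.0 without. Some of these sums rested on few cells. *Cbr2* had a UMI in 12 of the 39 cells with *Vsig4* and 9 of the 27 without, and 1 cell held 31.9% of its UMIs in WT members. *Folr2* and *Timd4* each had one in 22 and 9 of these cells, *Cd163* in 15 and 4 and *Mgl2* in 5 and 7. The division was made on these cells, and the values are a description.

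The share of members among C1q-gated cells was 4.68% (66 of 1409, 3.64–5.92) in WT and 2.30% (14 of 608, 1.26–3.83) in KO. The difference, KO minus WT, was -2.38 percentage points (-3.92 to -0.566), and -2.55 (-4.06 to -0.763) without the barcode with B cell transcripts. Among C1q-gated cells under the limits on *Prg4* and *Ccr2*, the members were 5.38% in WT and 3.02% in KO, -2.37 points apart (-4.22 to -0.0838). Of all cells within the limits the members made up 1.95% of WT (1.51–2.48) and 0.506% of KO cells (0.277–0.847), -1.45 points apart (-2.01 to -0.910). This last difference was shared by the C1q-gated cells as a whole, which were 1409 of 3380 WT and 608 of 2769 KO cells. Each library held hearts of both sexes, which gave a division by animals that the gate did not use. Among C1q-gated cells with *Xist* and no Y-linked transcript, WT had 26 members of 362 (7.18%) and KO 8 of 239 (3.35%), -3.84 points apart (-7.37 to 0.000366). In cells with Y-linked transcripts and no *Xist* they were 35 of 885 (3.95%) and 6 of 324 (1.85%), -2.10 points apart (-3.90 to 0.292). The KO share was the lower one in both, and within each sex the interval reached 0. No member had transcripts of both kinds, against 24 WT and 3 KO comparison cells. Counting error apart, the spread between hearts is unknown here, so genotype and pool cannot be told apart.

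**Figure D2:**
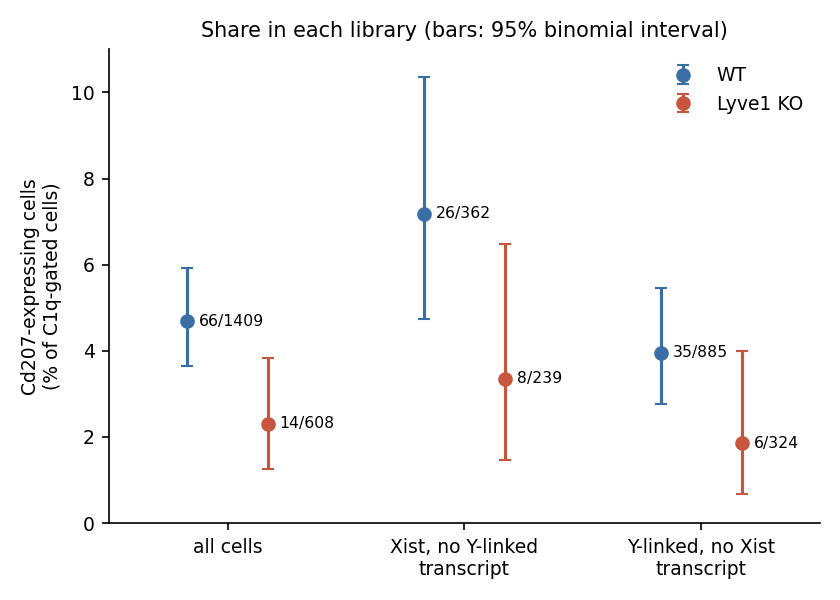
Share of members among C1q-gated cells in percent, for all cells and for cells with *Xist* only or Y-linked transcripts only, with 95% Clopper-Pearson intervals as error bars. The WT share was 4.68% and the KO share 2.30% over all cells, and the KO share was lower in both sexes.

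Across all genes, a gene was called higher or lower in the members than in the other CCR2-low macrophages when its log2 ratio reached 1 or -1, among genes with at least 100 UMIs in both groups of cells together. In WT 105 genes were higher (1% of 10498) and 141 lower (1.34%), 2.34% together. In KO 243 were higher (2.75% of 8847) and 486 lower (5.49%), 8.24% together, and in the 13 KO members 237 (2.68%) and 526 (5.96%). Of the 105 genes higher in WT, 90 could be compared in KO, where 80 had the same sign and 51 were called. Of the 141 lower in WT, 131 could be compared, 120 had the same sign and 92 were called. In both libraries together, 51 genes (0.577% of 8838) were called higher and 92 (1.04%) lower. These are shares of genes past a limit of size and not results of a test. They are the shares to hold beside the counts of each gene list below, where a count of 1 gene says little. The markers *Vsig4*, *Id3* and *Vcam1* are counted in the lists that hold them and are not independent support there.

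*Id1* and *Id3* were among the genes highest in the members over the comparison cells, and part of the BMP and TGF-beta pathway genes were higher by less. Of 21 pathway genes with enough UMIs in WT, 6 were higher and 0 lower, with a median log2 ratio of 0.38 against -0.01 over all genes. In KO 6 of 20 were higher and 0 lower with a median of 0.07 (6, 0 and 0.30 in the 13 KO members). *Id1* was at 500 CPM (464–538) in WT members, in 55 of 66 cells, and at 13.7 CPM in comparison cells, a log2 ratio of 4.43, the highest of the genes named by rule. In KO members *Id1* was at 49.5 CPM (28.3–80.5), in 10 of 14 cells, against 8.14 CPM, a log2 ratio of 1.72. *Id2*, which encodes another protein of the family, was at 1661 CPM against 421 in WT (1.95) and at 1170 CPM against 371 in KO (1.63). The inhibitory SMAD genes, which BMP and TGF-beta signals induce as feedback, were also higher in WT. *Smad6* was at 49.8 CPM against 3.82 (2.11) and *Smad7* at 44.9 against 12.9 (1.26). In KO *Smad6* had too few UMIs (31.0 against 2.84 CPM) and *Smad7* had a log2 ratio of 0.63. *Skil*, the gene of a SMAD corepressor, was higher in both libraries (346 against 148 CPM in WT, 1.17; 390 against 145 CPM in KO, 1.37). The receptor genes differed less in WT, with log2 ratios of 0.59 for *Tgfbr1*, 0.46 for *Acvrl1*, -0.27 for *Bmpr2* and -0.38 for *Tgfbr2*, and *Tgfbr1* reached 1.36 in KO (368 against 138 CPM). *Id1* was not particular to macrophages, as cells with *Ly6c2* transcripts had 71.1 CPM in WT and 95.02 in KO.

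Other genes with the highest WT ratios were of varied roles and were higher in KO too, where *Cd34* and *Klra2* had too few UMIs to be called. Among them, *Itgal* also belongs to the adhesion list and *Apoc1* to the LXR and lipid list. *Dmpk*, the myotonic dystrophy protein kinase gene, was at 170 CPM against 5.98 in WT (log2 ratio 3.50) and 77.4 against 6.95 in KO (2.37). It had a UMI in 50 of 66 WT members and in 34 of 1145 comparison cells. *Cd34*, which encodes a sialomucin better known from progenitor and endothelial cells, was at 92.6 CPM against 1.59 in WT (3.15) and 71.2 against 1.97 in KO, with a UMI in 38 of 66 and 7 of 14 members. Of 8 endothelial marker genes summed, the members had 42.7 CPM in WT and 40.3 in KO and the comparison cells 29.6 and 24.96, with 3 of the 8 at 0 in the WT members. *St3gal5*, the GM3 ganglioside synthase gene, was at 293 CPM against 24.7 in WT (3.13) and 142 against 16.7 in KO (2.52), in 61 of 66 and 13 of 14 members. *Adgb*, the androglobin gene, was at 163 against 12.03 CPM (2.97) and 127 against 17.4 CPM (2.32). *Itgal*, the alpha chain of the integrin LFA-1, was at 206 against 29.0 CPM (2.47) and 254 against 26.3 CPM (2.86), and 62 of 66 WT members had a UMI against 360 of 1145 comparison cells. *Tgm2*, the tissue transglutaminase gene, was at 236 against 37.7 CPM (2.37) and 204 against 49.7 CPM (1.84), and *Acp5*, the gene of tartrate-resistant acid phosphatase, at 238 against 42.5 CPM (2.24) and 170 against 42.1 CPM (1.79). *Klra2*, a gene of the Ly49 family whose near-identical copies can share reads, was at 79.0 against 6.32 CPM (2.45) and 71.2 against 5.77 CPM. *Apoc1*, an apolipoprotein gene of the *Apoe* cluster, was at 133 against 7.95 CPM (2.996) and 127 against 21.2 CPM (2.14), but came from 21 of 66 WT members and 1 cell held 25.1% of its UMIs. The broad presence across cells of *St3gal5*, *Itgal* and *Dmpk* thus differed from the patchy presence of *Apoc1*. *Klra2* and *Itgal* were higher in cells with *Ly6c2* transcripts (213 and 323 CPM in WT, 200 and 350 in KO) than in members. *Tgm2* reached 210 CPM in WT and 176 in KO in macrophages with at least 5 UMIs of *Prg4*. *Acp5* was lower in lymphocytes (116 and 141 CPM), but after thinning 53.3% and 52.8% of them had a UMI, against 49.2% and 46.2% of members. *Dmpk*, *Cd34*, *St3gal5*, *Adgb* and *Apoc1* were highest in the members among these groups.

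**Figure D3:**
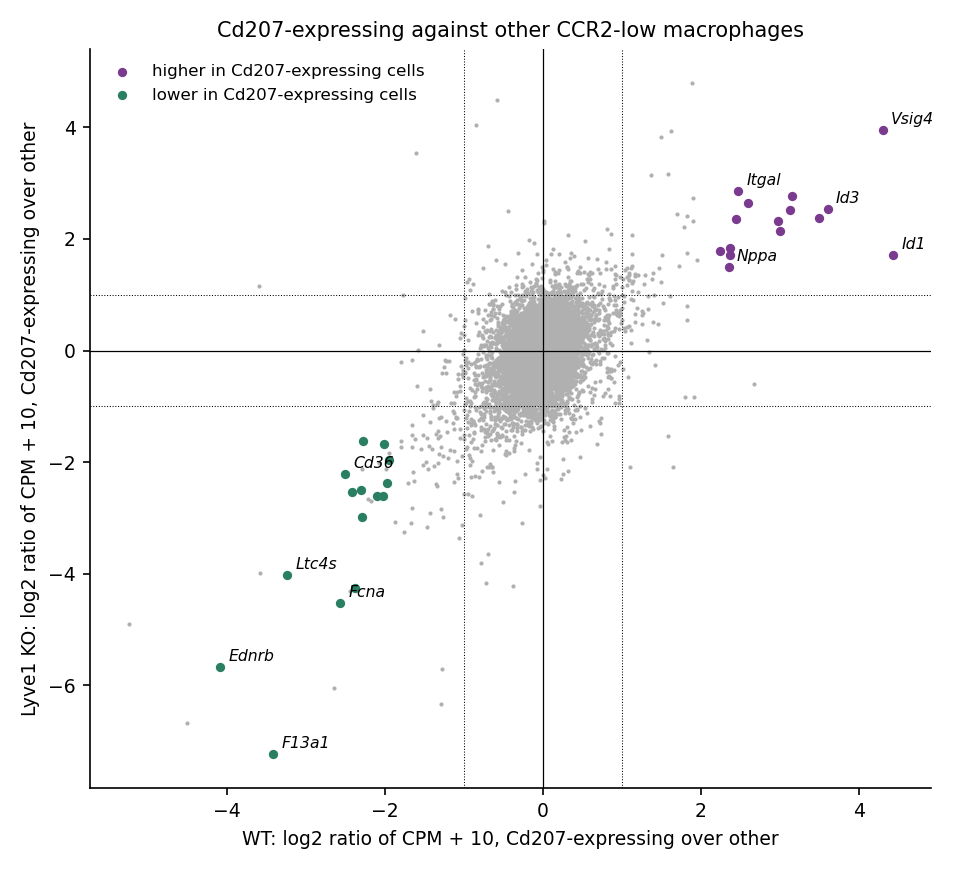
Log2 ratio (CPM + 10) of members over other CCR2-low macrophages in WT (horizontal axis) and KO (vertical axis), with genes of at least 100 UMIs in both libraries in gray, the genes named by rule in color (some with fewer UMIs in KO) and dotted lines at 1 and -1. Of the genes called higher or lower in WT, 80 of 90 and 120 of 131 had the same sign in KO, and a gene with 0 UMIs in KO members, such as *Ednrb*, is drawn at a ratio set by the added 10 CPM.

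Genes of the resident macrophage program that carries *Timd4*, *Lyve1* and *Folr2* were lower in the members. In WT 0 of 24 were higher and 14 lower, with a median log2 ratio of -1.28, and in KO 0 of 23 were higher and 18 lower, with a median of -1.76 (-1.59 with genes at 0 set to their bound), and 0 and 18 in the 13 KO members. Summed, the list was at 8885 CPM in WT members and 16946 CPM in the comparison cells, and at 5939 and 17822 CPM in KO. The endothelin receptor gene *Ednrb* was at 9.26 CPM in WT members, in 4 of 66 cells, against 317 CPM (-4.08). In KO members it had 0 UMIs against 499 CPM, at least 53.7-fold lower. *F13a1*, the coagulation factor XIII A chain gene, was at 150 against 1696 CPM in WT (-3.41) and 3.10 against 1963 CPM in KO (-7.24). *Ltc4s*, the leukotriene C4 synthase gene, was at 37.0 against 432 CPM (-3.23) and 24.8 against 556 CPM (-4.03), and *Alox5*, which acts upstream of it, at 10.7 against 73.6 CPM in WT (-2.02). The ficolin gene *Fcna* was at 61.2 against 413 CPM (-2.57) and 21.7 against 718 CPM (-4.52), and *Cbr2* at 167 against 911 CPM (-2.38) and 43.4 against 1004 CPM (-4.25). The fatty acid translocase gene *Cd36* was at 72.6 against 460 CPM (-2.51) and 77.4 against 397 CPM (-2.22; 26.8 CPM and -3.46 in the 13 KO members), and the inhibitory Fc receptor gene *Fcgr2b* at 80.5 against 432 CPM (-2.29) and 58.8 against 532 CPM (-2.98). The leukemia inhibitory factor receptor gene *Lifr* was at 9.97 against 71.3 CPM in WT (-2.02). *Slco2b1*, *Mctp1*, *Rasgrp3*, *Rab11fip5*, *Sema4a* and *Serpinb8* completed the genes named by rule, with WT log2 ratios from -2.41 to -1.95. Like *Ltc4s*, *Alox5*, *Cd36*, *Fcgr2b* and *Lifr*, they were named for their low ratio and were not in the resident list. In other genes of that list the WT members were closer to the comparison cells, with *Timd4* at 112 against 99.8 CPM (0.15) and *Cd163* at 151 against 199 CPM (-0.38). The mannose receptor gene *Mrc1* was at 1183 against 2309 CPM (-0.96) and the platelet factor 4 gene *Pf4* at 2663 against 2830 CPM (-0.09). In KO the members were lower in *Cd163* (3.10 against 235 CPM, -4.22), *Timd4* (55.7 against 141 CPM) and *Mrc1* (886 against 2330 CPM).

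*Lyve1* itself (chr7:110850607-110863239, minus strand) was at 169 CPM (148–192) in WT members, in 11 of 66 cells, against 551 CPM in the comparison cells, a log2 ratio of -1.65. In the KO members it had 1 UMI (3.10 CPM), against 22.9 CPM in the KO comparison cells. Of the 11 WT members with a *Lyve1* UMI, 8 also had *Vsig4*. Most members of the WT library therefore had no *Lyve1* UMI at this depth. The same held for most WT comparison cells, of which 523 of 1145 (45.7%) had one, against 16.7% of the members. After thinning to equal depth, these shares were 39.1% and 9.52%.

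Kupffer cell genes other than the gate genes, with the markers *Vsig4* and *Id3* counted, were mixed. In WT 6 of 18 were higher and 3 lower (median 0.52), and in KO 5 of 16 were higher and 7 lower (median -0.12; 5, 7 and -0.27 in the 13 KO members). Beside *Vsig4*, *Id3* and *Id1*, the WT members had more of the paired receptor gene *Pilra* (216 against 82.9 CPM, 1.28), of *Nr1h3*, which encodes the oxysterol receptor LXR-alpha (25.6 against 5.41 CPM, 1.21), and of *Adgre4* (41.3 against 12.3 CPM, 1.20). In KO, *Pilra* (1.20) and *Adgre4* (1.36) were higher too. Other defining Kupffer genes were at or near 0. *Cd5l*, *C6* and *Kcna2* had 0 UMIs in the members of both libraries and *Clec1b* had 5 UMIs in WT and 3 in KO. The scavenger receptor gene *Marco* had 4 UMIs in WT members (2.85 CPM against 143, -3.57) and 0 in KO members. Macrophages with at least 5 UMIs of *Prg4*, in contrast, had 899 CPM of *Cd5l* in WT and 984 in KO. *Spic*, the gene of an ETS factor of red pulp macrophages and Kupffer cells, was at 19.2 against 8.97 CPM in WT members (0.62). Of 9 hepatocyte markers the members held 3 UMIs in WT and 0 in KO, at or near the limit that a count of 0 allows.

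Langerhans cell genes other than *Cd207* also gave no full set. In WT 3 of 12 were higher and 1 lower (median 0.16), and in KO 5 of 10 were higher and 1 lower (median 0.77; 3, 1 and 0.33 in the 13 KO members). *Epcam*, a defining gene of Langerhans cells, had 0 UMIs in the members, *Cdh1* had 4 UMIs, all in 1 cell, and the 7 epithelial markers had 4 UMIs in WT and 0 in KO. *Runx3*, a transcription factor gene needed by Langerhans cells, was at 49.8 against 30.3 CPM in WT (0.57) and 86.7 against 20.8 CPM in KO (1.65). The other higher genes of this list, *Skil*, *Cd74*, *H2-Aa* and, in KO, *Tgfbr1*, also belong to lists described elsewhere here. The names Kupffer cell and Langerhans cell are therefore not used for these cells.

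The general macrophage genes did not set the members apart in WT, where 0 of 13 were higher or lower (median 0.11). *Csf1r*, the receptor gene for the growth factor of macrophages, was at 1734 against 1484 CPM, the F4/80 gene *Adgre1* at 810 against 592 CPM, *Mertk* at 215 against 147 CPM and *Cd68* at 749 against 696 CPM. In KO, 2 of 13 were lower, *Itgam* (102 against 282 CPM, -1.38) and *Lyz2* (-1.49), and the median was -0.06 (1 higher and 2 lower in the 13 KO members). Adhesion genes were higher in part, with 4 of 17 higher and 1 lower in WT and 5 of 19 higher and 2 lower in KO (5 and 3 in the 13 KO members). For these lists, the shares over all genes were 1% higher and 1.34% lower in WT and 2.75% and 5.49% in KO. *Cd44*, which like LYVE-1 binds hyaluronan, was at 837 CPM (790–887) against 369 in WT (1.16), and at 712 against 495 CPM in KO (0.52). In WT all 66 members and 990 of 1145 comparison cells had a UMI. *Cd44* was not particular to the members. Macrophages with at least 5 UMIs of *Ccr2* had 755 CPM in WT and 907 in KO. Those with at least 5 UMIs of *Prg4* had 674 and 826 CPM, and cells with *Ly6c2* transcripts 1012 and 1093 CPM. The integrin chain gene *Itga9* was higher in both libraries (214 against 96.8 CPM, 1.07; 232 against 86.8 CPM, 1.32). Among scavenger and efferocytosis receptors 3 of 22 were higher and 4 lower in WT, and 3 of 22 higher and 7 lower in KO (4 and 6 in the 13 KO members). The genes higher in WT, also higher in KO, were the receptor tyrosine kinase gene *Axl* (172 against 73.3 CPM, 1.13; KO 1.72), the integrin chain gene *Itgav* (241 against 105 CPM, 1.13; KO 1.21) and *Cxcl16*, whose product is both a chemokine and a scavenger receptor (511 against 248 CPM, 1.01; KO 1.29). *Gas6*, which encodes a ligand of AXL, was lower (124 against 425 CPM, -1.70; KO -2.38).

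Of the chemokine genes, 2 of 18 were higher and 6 lower in WT (median -0.75) and 1 of 16 higher and 10 lower in KO (median -1.83; 1, 9 and -1.54 in the 13 KO members). Over all genes 1% were higher and 1.34% lower in WT, and 2.75% and 5.49% in KO. In WT *Ccl8* was at 4.27 against 67.2 CPM (-2.43), *Ccl2* at 391 against 838 CPM (-1.08) and *Ccl7* at 296 against 632 CPM (-1.07). Of the Notch genes, the target gene *Hes1* was higher in WT (157 against 53.4 CPM, 1.39; KO 0.50) and *Rbpj*, the transcription factor of the pathway, lower (211 against 595 CPM, -1.46; KO -2.11), the called genes of 12 in WT. In KO 0 of 10 Notch genes were higher and 2 lower (0 and 3 in the 13 KO members). Of 28 myeloid transcription factor genes 4 were higher and 0 lower in WT. These were *Id3*, the interferon regulatory factor gene *Irf7* (203 against 50.1 CPM, 1.83; KO 0.80), *Nr1h3* and *Cebpa* (237 against 113 CPM, 1.003; KO 0.77). In KO 2 of 26 were higher and 4 lower (6 and 4 in the 13 KO members, where *Irf7* reached 1.07 and *Cebpa* 1.06). The ETS factor gene *Spi1*, which encodes PU.1, was near the comparison cells in both (0.15 and 0.18).

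The other lists were close to the comparison cells or lower. Beside them, 1% of all genes were higher and 1.34% lower in WT, and 2.75% and 5.49% in KO. A count of 1 gene in a list says little about the list. The counts of lower C-type lectin and cavity macrophage genes in both libraries lay above these shares. So did those of lower complement and LXR and lipid genes in KO, and this was not tested. LXR and lipid genes had 2 of 27 higher and 3 lower in WT and 1 of 25 higher and 7 lower in KO (4 and 5 in the 13 KO members), with *Pltp* (-1.48; KO -1.997) and *Lpl* (-1.51; KO -2.04) lower beside *Cd36*. Of heme and iron genes 0 of 20 were higher and 1 lower in WT, and 0 of 19 higher and 4 lower in KO (0 and 4 in the 13 KO members), where the heme oxygenase gene *Hmox1* was at 115 against 747 CPM (-2.60). C-type lectin genes outside the gate had 2 of 17 higher and 4 lower in WT, and 1 of 15 higher and 7 lower in KO (1 and 6 in the 13 KO members). The inhibitory receptor gene *Clec12a* was the one higher in both (215 against 95.7 CPM, 1.09; KO 1.27). Complement genes had 1 of 17 higher, *Vsig4*, and 2 lower in WT, and 1 of 14 higher and 6 lower in KO (1 and 5 in the 13 KO members). In the microglia-type list 2 of 14 were higher and 1 lower in WT and 0 of 13 higher and 2 lower in KO (1 and 2 in the 13 KO members). *Tmem119* was at 95.4 against 41.8 CPM in WT (1.02; KO 0.87, and 1.14 in the 13 KO members), *Gpr34* at 39.2 against 141 CPM (-1.62; KO -1.58) and the fractalkine receptor gene *Cx3cr1* at 826 against 714 CPM (0.21; KO 0.41). Of the genes of cavity macrophages 0 of 9 were higher and 3 lower in WT and 0 of 10 higher and 5 lower in KO (0 and 6 in the 13 KO members). The acute-phase gene *Saa3* had 0 UMIs in WT members against 368 CPM, at least 172-fold lower.

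**Figure D4:**
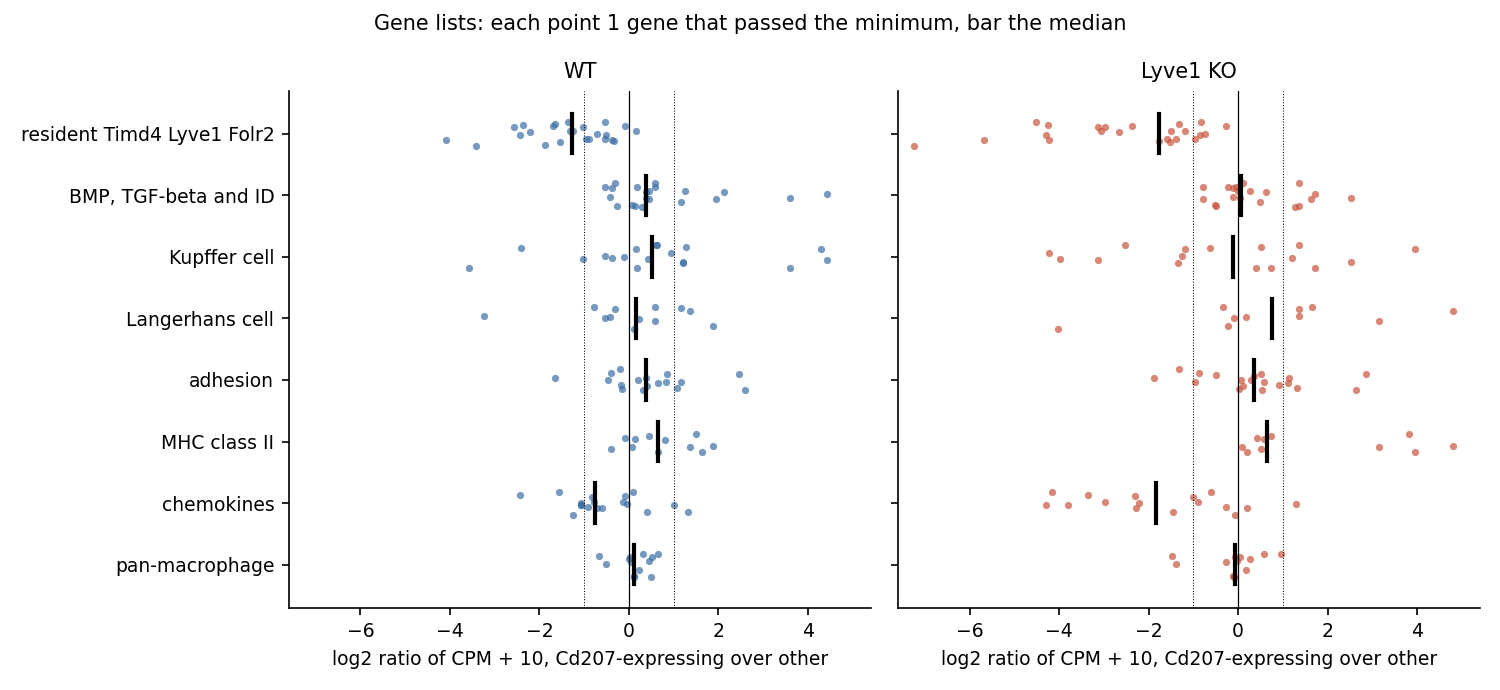
Log2 ratios (CPM + 10) of members over other CCR2-low macrophages for the genes of 8 lists, 1 point per gene with at least 100 UMIs, with WT on the left, KO on the right, bars for the medians and dotted lines at 1 and -1. The resident list has medians of -1.28 and -1.76, against -0.01 over all genes in both libraries.

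Transcripts of other cell types moved with the members in places. Of 10 cardiomyocyte markers 3 were higher and 0 lower in WT members. These were the atrial genes *Myl7* (101 against 11.6 CPM, 2.36), *Nppa* (79.8 against 7.61 CPM, 2.35) and *Myl4* (63.4 against 6.89 CPM, 2.12). The ventricular genes *Myl2* (13.5 against 22.4 CPM, -0.46) and *Myl3* (13.5 against 16.5 CPM, -0.17) were not higher. *Myl7* was in 22 of 66 WT members, with 35.2% of its UMIs in 1 cell. In KO members *Myl7* was at 40.3 against 5.37 CPM and *Nppa* at 24.8 against 2.37 CPM, each in 4 of 14 cells, but both had too few UMIs to be called. Of the 6 markers with enough UMIs in KO, 0 were called higher and 2 lower, as in the 13 KO members. All 13 markers summed gave 416 CPM in WT members and 138 in comparison cells, and 127 and 152 CPM in KO, and 22 of 66 WT members had none. The study's isolation protocol for flow cytometry removed the atria, and the source of these transcripts was not tested.

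Genes of antigen presentation by MHC class II had 4 of 11 higher and 0 lower in WT (median 0.64), and the genes differed in how many cells carried them. *H2-Aa* was at 238 against 57.0 CPM (1.89) with a UMI in 14 of 66 members and 53% of its UMIs in 1 cell, and *Cd74*, the invariant chain gene, at 1115 against 428 CPM (1.36) with a UMI in 53 of 66 members and 31% of its UMIs in 1 cell. In KO 4 of 10 were higher and 0 lower, and 0 of 8 in either direction in the 13 KO members, where *Cd74* was at 452 instead of 2437 CPM and *H2-Aa* at 11.5 instead of 492 CPM. The 7 B cell markers with enough UMIs in WT were 0 higher and 1 lower, and in KO 3 of 3 were higher, and 0 of 2 higher and 1 lower in the 13 KO members. Neutrophil markers were 0 of 8 higher and 4 lower in WT and 0 of 2 higher and 1 lower in KO (1 and 1 in the 13 KO members). T and NK cell markers were 0 of 6 in either direction in WT, and the 1 measured in KO was higher, *Cd4* (49.5 against 16.3 CPM, 1.18; 1.36 in the 13 KO members). Monocyte markers were 0 of 3 higher and 2 lower in WT and 1 of 2 higher and 0 lower in KO (0 and 1 in the 13 KO members). The KO exception was *Plac8*, all of whose UMIs came from the barcode with B cell transcripts. Dendritic cell markers were 0 of 4 in either direction in WT and 0 higher and 1 lower of 1 in KO (0 and 0 in the 13 KO members), endothelial markers 0 higher and 1 lower of 2 in WT and 1 and 1 of 2 in KO (0 and 1 in the 13 KO members), and fibroblast and erythroid markers 0 in either direction. Mast cell and basophil markers had 0 UMIs in the members.

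The shares of cells with proliferation transcripts overlapped between members and comparison cells. At 6300 UMIs per cell, 23.8% of WT members (15 of 63, 13.98–36.2) had a UMI of *Mki67* or *Top2a*, against 27.1% of the comparison cells (24.3–29.97). In KO these shares were 30.8% (4 of 13, 9.09–61.4) and 22.5% (18.6–26.7), and in the lymphocyte gate 31.3% in WT and 24.3% in KO, and the members' intervals held the shares of the comparison cells. Without thinning, the shares in members were 36.4% in WT and 50% in KO. Of cell cycle genes, 0 of 29 were higher and 5 lower in WT members (median -0.53). In KO 10 of 27 were higher and 1 lower (median 0.64), and in the 13 KO members 1 and 1 (median 0.20).

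A comparison of whole profiles, with *Cd207*, *Clec4f*, *Prg4*, *Ccr2* and the other gate genes left out, gave the members' own neighbors. Among the 15 nearest C1q-gated cells of a WT member, a median of 63.3% were members, and 40% for a KO member, where members were 3.97% of the cells. With 10 instead of 30 principal components the median was 26.7% in both libraries. For other CCR2-low macrophages of either library the median was 0, and for cells with 1 or 2 UMIs of *Cd207* and *Clec4f* it was 13.3%. At least 50% of the neighbors were members for 43 of 66 WT and 6 of 14 KO members, and 2 WT and 2 KO members had none. Of the member neighbors of KO members, 75 of 95 (78.9%) were WT cells. Neighborhood rests on the same cells and is given as a description.

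Within the members, gene levels of the KO and WT libraries were set against each other for the 5277 genes with at least 50 UMIs. Of these 71 were higher in KO (1.35%) and 179 lower (3.39%), 4.74% together, and 49 of 5149 (0.952%) and 178 (3.46%) in the 13 KO members, of which 30 and 129 were shared. Each KO value rests on 14 cells of 1 library. *Vsig4* (log2 KO over WT -0.08) and *Vcam1* (0.01) were at close levels. *Id1* was lower in KO, at 49.5 against 500 CPM (-3.10; -2.84 in the 13 KO members), and per cell it ran from 0 to 2.96 UMIs per 10000 in KO (median 0.585) and from 0 to 22.3 in WT (median 3.60), so the ranges overlapped. *Id3* was at 1105 CPM in KO against 2047 in WT (-0.88; -0.58 in the 13 KO members). In the comparison cells the KO over WT ratio of *Id1* was -0.39 and that of *Id3* 0.19. *Cd163* was at 3.10 CPM in KO and 151 in WT members (-3.62), whereas its ratio in comparison cells was 0.23. The chemokine gene *Ccl12* was at 15.5 and 253 CPM (-3.37; -0.35 in comparison cells), the stress-response gene *Gadd45g* at 40.3 and 390 CPM (-2.99; -0.35) and the heat shock gene *Hspa1a* at 393 and 2252 CPM (-2.49; -0.63). Thus *Id1*, *Cd163*, *Ccl12*, *Gadd45g* and *Hspa1a* differed less between the libraries in the comparison cells than in the members. These genes were named for their low ratio within members, so a smaller ratio elsewhere follows in part from that choice. The contrast was not tested and cannot show a difference particular to the members. Some sums also rested on few cells. *Cd163* had a UMI in 19 WT members and 1 KO member, whereas *Id1* had one in 55 and 10. For *Ccl12* 35.5% of the WT UMIs and for *Hspa1a* 48% of the KO UMIs were in 1 cell.

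Other genes lower in KO members were lower in KO comparison cells as well. As the strain of each pool was not given, the deletion of *Lyve1* and other genetic differences between the pools cannot be told apart. *Dynlt1b*, whose near-identical copies can share reads, was at 104 CPM in WT members and had 0 UMIs in KO members, at least 11.2-fold lower, with a log2 ratio of -3.83 in comparison cells. *G530011O06Rik* was at least 8.89-fold lower (82.6 CPM in WT; -3.07 in comparison cells) and *Mid1* at least 5.37-fold lower (49.8 CPM in WT; -2.08). Of the genes higher in KO members, some rested on the barcode with B cell transcripts. *Lars2* had a log2 ratio of 2.96, and -0.22 in the 13 KO members, and *Cytip* 1.93 and 0.96, and *Peak1* 1.71 and 0.36. *Slamf7* (1.66 and 1.94), *Dppa3* (1.61 and 1.89), *Hmgn5* (1.55 and 1.77), *Sox4* (1.55 and 1.84) and *Hist1h2ae* (1.55 and 1.81) were higher with and without that barcode, but the ratio of *Hist1h2ae* was -1.42 when members needed 10 UMIs of *Cd207* and *Clec4f*. For *Sox4* 72.5% and for *Hist1h2ae*, a member of the histone gene family with near-identical copies, 92% of the KO UMIs were in 1 cell. By list, for KO over WT, chemokines had 1 of 13 higher and 7 lower (1 and 6 in the 13 KO members), resident genes 0 of 18 higher and 7 lower (0 and 6), Kupffer cell genes 0 of 11 higher and 3 lower (0 and 3), and BMP, TGF-beta and ID genes 0 of 16 higher and 1 lower, *Id1* (0 and 1), beside 1.35% higher and 3.39% lower over all genes.

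**Figure D5:**
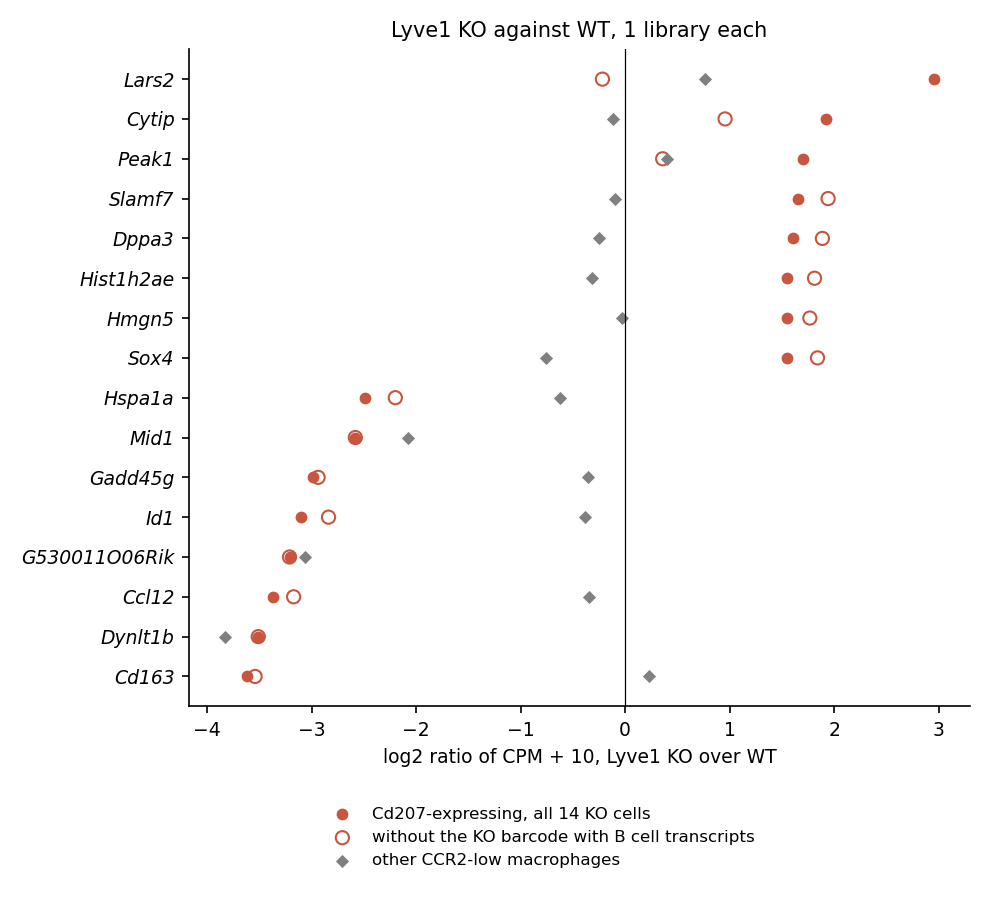
Log2 ratio (CPM + 10) of KO over WT on the horizontal axis for the 16 genes named by rule, in all members (filled circles), without the KO barcode with B cell transcripts (open circles) and in other CCR2-low macrophages (diamonds). *Lars2* goes from 2.96 to -0.22 without that barcode, whereas *Cd163* stays at -3.54 and *Id1* at -2.84, and the genes with 0 UMIs in KO members (*Dynlt1b*, *Mid1*, *G530011O06Rik*) are drawn at ratios set by the added 10 CPM.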

How the data were processed

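The values deposited by the authors were raw UMI counts per gene and barcode (32285 genes), made with Cell Ranger and the mm10/GRCm38 reference, version 8.0.1 per the submitters' processing notes, with no normalization. Barcodes were filtered as given above. Counts were summed per library and group of cells, divided by the summed UMIs (CPM) and compared as log2 ratios after adding 10 CPM, with calls at 1 in size. No p-value or standard error was made, since cells are not replicates. Shares of positive cells were computed after thinning to 6300 UMIs without replacement. Neighbors (15) were found on 30 components of 2000 variable genes, centered per library, without gate, mitochondrial and sex-linked genes. Doublet scores came from scrublet (scanpy 1.11.5), whose automatic threshold marked 0 barcodes, so no doublet was removed and the 131 WT and 112 KO highest scores (0 members) were left out in an alternative. Gene positions were from GENCODE (GRCm38) and promoters from RefSeq (GRCm38.p6). Calculations used Python 3.11.15, numpy 2.4.6, scipy 1.17.1 and pandas 2.3.3, and the scripts were tested on simulated data.

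The members and gene lists were chosen with earlier results of these data known. Genes named were the markers, *Lyve1*, list genes, the 15 highest and 15 lowest WT ratios with the same sign in KO and a UMI in at least 25% of the cells of the higher group, and the 8 highest and 8 lowest KO over WT ratios within members with a UMI in 25% of the members of the higher library. The alternatives were other limits for members and cells, another scaling, pseudocount and minimum, the mean of per-cell log2 values and other neighbor settings. The limits of 10 UMIs and of *Cd207* alone, and leaving out the barcode with B cell transcripts, were chosen after seeing the data. The assignment of cells to hearts was not analysed here.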

Additional observations from a re-analysis of the deposited data

Results flagged for a closer look

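For 4 of the genes named for their KO over WT ratio, the members lay on opposite sides of the other CCR2-low macrophages in the libraries, by at least 0.5 on the log2 scale in each. With 1 library per genotype these differences were not tested. The log2 ratio of members over comparison cells for *Lars2* was -0.966 in WT and 1.22 in KO, and -1.95 in KO without the barcode with B cell transcripts. For *Peak1* it was -0.552 in WT and 0.752 in KO, and -0.60 without that barcode. *Gadd45g* stood at 1.8 in WT and -0.84 in KO, and -0.79 without the barcode. *Hspa1a* stood at 0.914 in WT and -0.949 in KO, and -0.66 without it.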

How the results depend on the processing

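No paired analysis was possible because each genotype had 1 library. The KO minus WT difference in the share of members among C1q-gated cells stayed below 0 with its interval under all 10 alternatives, closest to 0 with no limit on *Prg4* and *Ccr2* (-1.96 points, -3.58 to -0.0452). With the study's cell limits (at least 500 genes, at most 30% mitochondrial UMIs) the WT share was 3.36%. Counts of called genes depended on the pseudocount and the averaging. With CPM + 1 there were 224 genes higher and 553 lower in WT members, 487 and 1087 in KO members, and 312 lower in KO than in WT members. With means of per-cell log2 values there were 22 and 11 in WT, 19 and 33 in KO, and 0 higher and 9 lower in KO than WT members, values that shrink genes of few UMIs per cell by construction. With no minimum of UMIs, 369 genes were higher in KO members, and 261 were higher and 373 lower in KO than in WT members. Of the calls between genotypes, 28.4% were higher in KO in the values above, 34.9% with median-ratio scaling and 41.2% with no minimum. With a limit of 10 UMIs of *Cd207* and *Clec4f*, 42 genes were higher in KO than in WT members. *Lars2* then had a log2 ratio of -0.297 and *Hist1h2ae* of -1.42, and *Lars2* of -0.217 without the barcode with B cell transcripts, all against positive values above. Sums over the 14 KO members thus depended on single cells. With 10 components the median share of member neighbors in WT was 26.7%. Without thinning, the WT shares of positive members were 98.5% for *Cd207*, 39.4% for *Clec4f* and 53% for *Vcam1*. The cause of these shifts was otherwise not tested. Of the other values for genes and lists, 907 stayed within the limits set, 194 moved and 3 changed sign, those named above.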
